A study of Sus scrofa with 6 samples.

Results

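The genes described are 6 genes of the complement and coagulation systems that lie on pig chromosome 2, namely C3, CFD, F2, F12, SERPING1 and CD59. They were chosen by name, as a fixed list, from the 2675 genes that the RefSeq annotation places on chromosome 2 and the 30509 genes to which the deposited transcripts could be joined. RNA was measured in 6 whole embryos at embryonic day 21, all labelled Landrace x Yorkshire x Duroc. The 3 parthenogenetic embryos (PA) arose from oocytes matured in vitro and activated by electric pulses, taken from ovaries of slaughtered pigs of that cross, carry maternal genomes only, and were transferred to the oviducts of surrogate gilts. The 3 control embryos (CN) were untreated biparental embryos, obtained, as the study's methods state, by natural mating of Landrace x Yorkshire gilts to boars whose breed is not given there. The mothers' cross, the in vitro steps and the transfer therefore differ between PA and CN and cannot be told apart from parthenogenesis. The embryos were whole, so that no liver was isolated, and each group developed in no more than 2 gilts by the study's methods, so that some embryos of a group shared a gilt. P-values therefore measure the spread between these embryos only.

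Complement is a cascade of plasma proteins in which C3 is cleaved to mark targets for clearance, and coagulation is a neighbouring cascade that ends when thrombin turns fibrinogen into fibrin. Both are chains of serine proteases held in check by inhibitors in the plasma and on cell surfaces. The hepatocyte is the main source of most of these plasma proteins, and hepatocytes of the early liver bud already secrete some of them, whereas CD59 is a membrane protein of many cell types and CFD is best known as a product of fat cells.

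The embryos held between 3100284 and 3573406 estimated counts each. Genes of chromosome 2 held 91.9% to 92.7% of them in CN and 82.8% to 91.2% in PA, so levels in TPM, Salmon's length-corrected share of all transcripts listed, are relative almost entirely to chromosome 2. Transcripts absent from the annotation held 6.91% to 7.77% of the counts in CN and 8.44% to 16.9% in PA, most in PA1, which lowers the TPM of all other genes in that embryo. The edgeR fit scaled the embryos by TMM factors from 0.915 in PA1 to 1.04 in CN2 and left the median log2 fold change of the 1652 tested genes at 0.01. In that fit 106 genes, or 6.42%, had an adjusted p-value below 0.05, of which 73 (4.42%) were lower and 33 (2%) higher in PA. An additional fold change above 2-fold in either direction left 49 genes (2.97%).

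All 6 members passed the expression filter, and 0 of 6 differed between PA and CN at an adjusted p-value below 0.05 by edgeR's quasi-likelihood test. With DESeq2 0 of 6 were called as well, and 0 of 6 had an unadjusted edgeR p-value below 0.05, beside 346 (20.9%) of the tested genes. The normalized values of PA and CN overlapped for every member, whereas 28.1% of the tested genes had no overlap. What varied was the level among the PA embryos, where C3, CFD, F2, F12 and SERPING1 were higher in PA1 than in PA2 and PA3. In PA2 and PA3 the normalized values of C3, F2, F12 and SERPING1 lay below every CN embryo, and those of CFD did not. The SD of the members' log2 normalized values in PA was larger than that of 81.2% (SERPING1) to 99.7% (C3) of the tested chromosome 2 genes.

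The stretches upstream of C3, F2, F12 and SERPING1 are shown because the levels of these 4 genes varied together over the embryos. Each is the first run of 200 bases upstream of the start of the most abundant transcript that holds no annotated exon of the gene. It adjoins that start in SERPING1 and CFD and lies 23 bases further upstream in C3, 28 in F2, 48 in F12 and 58 in CD59, past the first exons of less abundant transcripts. In SERPING1 and F12 the window lies within the annotated gene, downstream of the starts of other transcripts. These include XM_005660873.3, with 39.8% of the SERPING1 TPM in CN and 42.1% in PA, and XM_021081389.1, with 6.19% and 8.56% of the F12 TPM. The windows are read 5′ to 3′ on the strand of the gene from the RefSeq assembly Sscrofa11.1, and capitals mark letters found by the motif search given after them.
C3, chr2:72431270-72431469, plus strand: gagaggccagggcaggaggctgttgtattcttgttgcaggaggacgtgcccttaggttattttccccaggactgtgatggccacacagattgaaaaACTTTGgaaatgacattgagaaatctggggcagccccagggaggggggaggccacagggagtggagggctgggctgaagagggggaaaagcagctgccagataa
F2, chr2:15819152-15819351, minus strand: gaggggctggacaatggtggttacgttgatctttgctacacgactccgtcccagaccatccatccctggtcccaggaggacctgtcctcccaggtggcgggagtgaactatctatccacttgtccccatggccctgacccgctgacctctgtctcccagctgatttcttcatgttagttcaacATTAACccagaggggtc
F12, chr2:80535699-80535898, plus strand: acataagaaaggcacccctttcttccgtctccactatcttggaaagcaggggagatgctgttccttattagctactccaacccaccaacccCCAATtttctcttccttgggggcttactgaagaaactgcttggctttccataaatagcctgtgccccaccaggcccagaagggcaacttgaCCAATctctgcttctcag
SERPING1, chr2:13338180-13338379, minus strand: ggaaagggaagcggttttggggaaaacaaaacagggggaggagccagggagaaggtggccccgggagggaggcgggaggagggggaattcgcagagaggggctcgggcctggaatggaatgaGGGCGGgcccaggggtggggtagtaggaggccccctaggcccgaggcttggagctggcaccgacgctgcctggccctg

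The search covered both strands for 7 short motifs. Of general promoter elements it looked for the core letters TATAAA, for a box of the letters CCAAT and for a GC box (GGGCGG). Of sites known from liver genes it looked for letters bound by HNF1 (GTTAAT) and by HNF4 (CAAAGT). It also covered a forkhead site (TGTTTAC) and a site of the C/EBP family (TTGCNNAA). The window of C3 held CAAAGT on the opposite strand, at 104 to 99 bases from the downstream end of the window, and 6.93% of 1530 such windows of chromosome 2 genes held it. The window of F2 held GTTAAT on the opposite strand at 17 to 12 bases from that end, found in 3.59% of windows. The window of F12 held CCAAT at 109 to 105 and at 18 to 14 bases, found in 29.2% of windows, and that of SERPING1 held GGGCGG, found in 51.4%. The same letters GGGCGG were in the windows of CFD and CD59, and CFD also held TGTTTAC (2.03% of windows) and TTGCNNAA (5.62%), while TATAAA (5.75% of windows) was in 0 of the 6. No letters of the list other than GGGCGG were shared by any pair of members, and a match is a description of the sequence only. The windows and motifs were chosen after the levels were known.

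C3 (chr2:72431470-72471622, plus strand) encodes the protein on which all activation routes of complement converge. Its level was 334, 291 and 327 TPM in CN1, CN2 and CN3 and 714, 195 and 103 TPM in PA1, PA2 and PA3. The CN embryos lay within 1.15-fold of each other, and the PA embryos spanned 6.97-fold, with PA1 above and PA2 and PA3 below every CN embryo. The SD of the log2 normalized C3 values in PA was 1.55 against 0.22 in CN, larger than that of 99.7% of the tested chromosome 2 genes in PA. The log2 fold change, PA over CN, was 0.22 (SE 0.68, edgeR adjusted p = 0.883), with a 95% interval of -1.38 to 1.81. That direction rested on PA1, since the log2 fold change was -1.07 without it (edgeR adjusted p = 0.0690) and 0.67 without PA3. The mean difference in log2 TPM, which weights the embryos equally on the log scale, was -0.38, the opposite sign, with p = 0.7 in a two-sided exact permutation test, whose smallest possible p with 3 against 3 embryos is 0.1.

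CFD (chr2:77509792-77511988, minus strand) encodes factor D, the serine protease that starts the alternative route by cleaving factor B once this is bound to C3. It had the lowest level of the members, 56.3, 75.6 and 78.6 TPM in CN and 101, 67.4 and 77.9 TPM in PA, from 110 to 210 counts per embryo. Only PA1 lay above the CN range. The log2 fold change was 0.31 (SE 0.22, edgeR adjusted p = 0.485; 95% interval -0.21 to 0.82) and fell to 0.07 without PA1.

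SERPING1 (chr2:13324160-13338826, minus strand) encodes the C1 inhibitor, a serpin that blocks the starting proteases of the classical complement route and also activated factor XII. It was the most abundant member, at 3166, 4009 and 3739 TPM in CN and 3783, 3141 and 2851 TPM in PA. PA2 and PA3 lay below every CN embryo and PA1 lay inside the CN range in TPM. SERPING1 had a log2 fold change of -0.08 (SE 0.15, edgeR adjusted p = 0.813) with an interval of -0.42 to 0.27, or 0.746-fold to 1.20-fold, and 0.06 without PA3.

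CD59 (chr2:27186587-27207303, plus strand) encodes a membrane-anchored protein that stops the terminal complement complex from forming pores in the cell's own membrane. Its level was 390, 420 and 370 TPM in CN and 373, 640 and 409 TPM in PA. PA2 stood above the other 5 embryos, which lay between 370 and 420 TPM. CD59 had a log2 fold change of 0.33 (SE 0.19, edgeR adjusted p = 0.384; 95% interval -0.11 to 0.76) and 0.07 without PA2.

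F2 (chr2:15793257-15819151, minus strand) encodes prothrombin, the precursor of thrombin. Its level was 2399, 2392 and 2749 TPM in CN and 2857, 1888 and 1953 TPM in PA. PA1 was the highest of the 6 embryos, and PA2 and PA3 were the lowest. The log2 fold change was -0.09 (SE 0.20, edgeR adjusted p = 0.834), and its interval of -0.56 to 0.37 corresponds to 0.680-fold to 1.29-fold. It was -0.37 without PA1, 0.03 without PA2 and 0.05 without PA3, and it was not called in any of these fits.

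F12 (chr2:80527451-80544835, plus strand) encodes coagulation factor XII, which starts the contact route of clotting and is the protease that the C1 inhibitor holds in check. Its level was 298, 314 and 433 TPM in CN and 327, 243 and 166 TPM in PA. PA2 and PA3 lay below every CN embryo, while PA1 was second only to CN3. F12 had a log2 fold change of -0.42 (SE 0.28, edgeR adjusted p = 0.447) with an interval of -1.05 to 0.22, and it was -0.74 without PA1 and -0.16 without PA3.

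**Figure D1:**
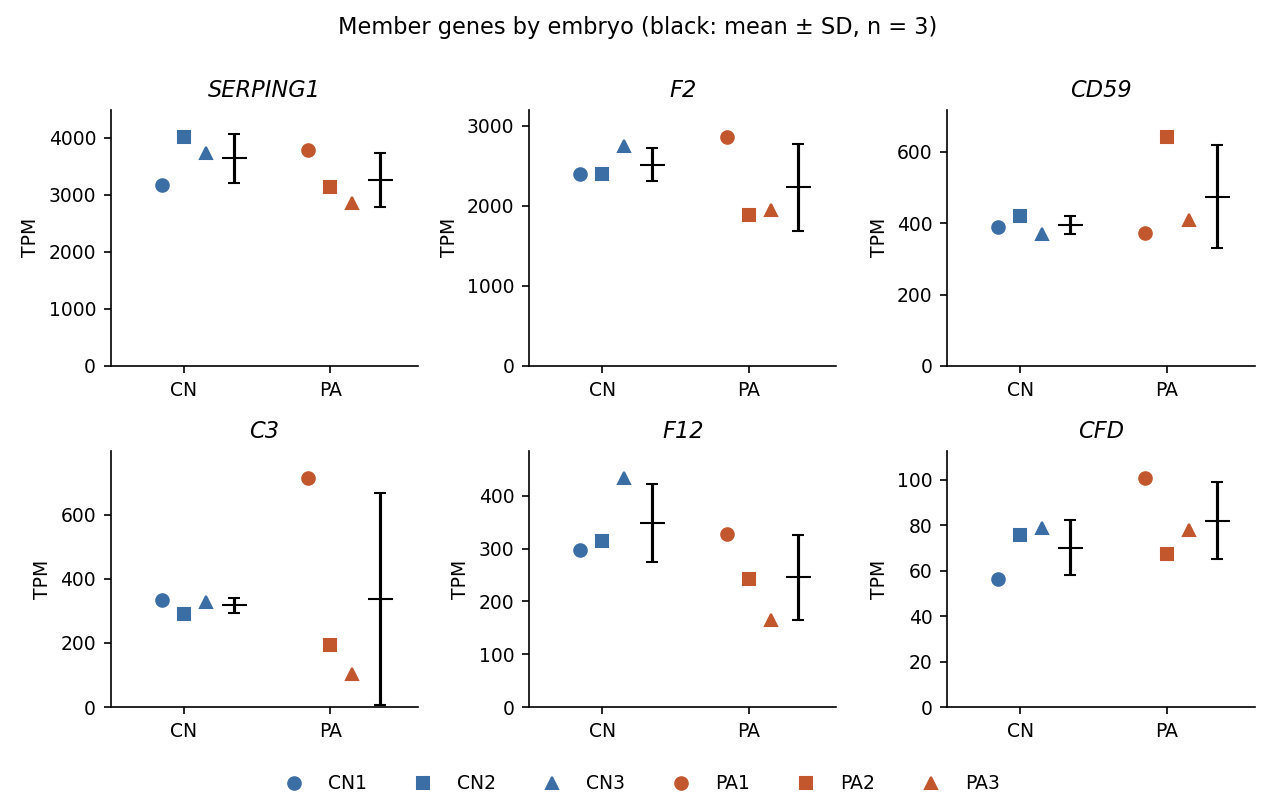
Level of each member gene in TPM (vertical axes, from 0) in the 3 CN (blue) and 3 PA (orange) embryos, 1 point per embryo, with the group mean ± SD in black. PA1 is the highest embryo for F2, C3 and CFD, PA2 and PA3 lie below the CN embryos for C3, F2, F12 and SERPING1, and CD59 stands out in PA2 at 640 TPM.

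By mean TPM over the 6 embryos, a per-length scale, the order was SERPING1 (3448), F2 (2373), CD59 (434), C3 (327), F12 (297) and CFD (76.1). SERPING1 was above F2, F2 above CD59 and F12 above CFD within 6 of 6 embryos. CD59 was above C3 in 5 of 6, the exception being PA1, and C3 was above F12 in only 2 of 6, so that C3 and F12 could not be ordered. SERPING1 and F2 ranked 35 and 48 among the chromosome 2 genes by mean TPM, and CFD ranked 959.

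The log2 normalized values of C3, F2, F12 and SERPING1 had pairwise Pearson correlations of 0.842 to 0.951 over the 6 embryos and of 0.742 to 0.935 over the 5 embryos other than PA1. These 4 genes rose and fell with each other in the same libraries, which share depth and scaling, and 6 points are few. The pattern was not particular to them, since each had higher correlations over the 6 embryos with chromosome 2 genes outside the members. Examples are SNX15 with C3 (0.972) and SERPING1 (0.989), TALDO1 with F2 (0.990) and ISYNA1 with F12 (0.984). CFD was correlated with C3, F2, F12 and SERPING1 at 0.287 to 0.602 over 6 embryos and at -0.44 to -0.10 without PA1. CD59 had correlations of -0.37 to -0.11 with the other 5 members over 6 embryos. Relative to the CN mean on the log2 scale, C3 stood at 1.36 in PA1, -0.64 in PA2 and -1.68 in PA3, the widest range of the members. F12 stood at 0.12 in PA1 and -1.11 in PA3, and F2 and SERPING1 stayed within 0.42 of their CN means.

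Of 12 hepatocyte markers 6 lie on chromosome 2, and these showed where PA1 stood relative to PA2 and PA3 outside the complement genes. Their summed level was 607 to 859 TPM in CN and 828, 429 and 560 TPM in PA1, PA2 and PA3. In PA2 5 of the 6 markers, and in PA3 4 of the 6, lay below every CN embryo on the normalized scale, beside 33.8% and 33.1% of all tested genes. Of the members, C3, F2, F12 and SERPING1 lay there in both embryos. In PA1 the markers were split, since CREB3L3, BHMT and TM6SF2 were highest there, whereas ANGPTL6 was below every CN embryo and FGFR4 was 0.10 below the CN mean on the log2 scale. ONECUT3, at 11 to 30 counts, was above every CN embryo in all 3 PA embryos on the normalized scale. Of the 6 markers 0 were called between PA and CN, 2 had an unadjusted edgeR p-value below 0.05 (20.9% of all tested genes did), and their median log2 fold change was -0.21. The defining hepatocyte genes ALB, AFP, TTR, APOB and AHSG, all outside chromosome 2, were at 0 in every embryo and APOA1 had at most 1 count in an embryo, so that of the hepatocyte markers only these 6 could be read. In whole embryos a difference in hepatocyte number and one in RNA per hepatocyte cannot be told apart. The part of hepatocyte number in the spread of the members was not tested.

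**Figure D2:**
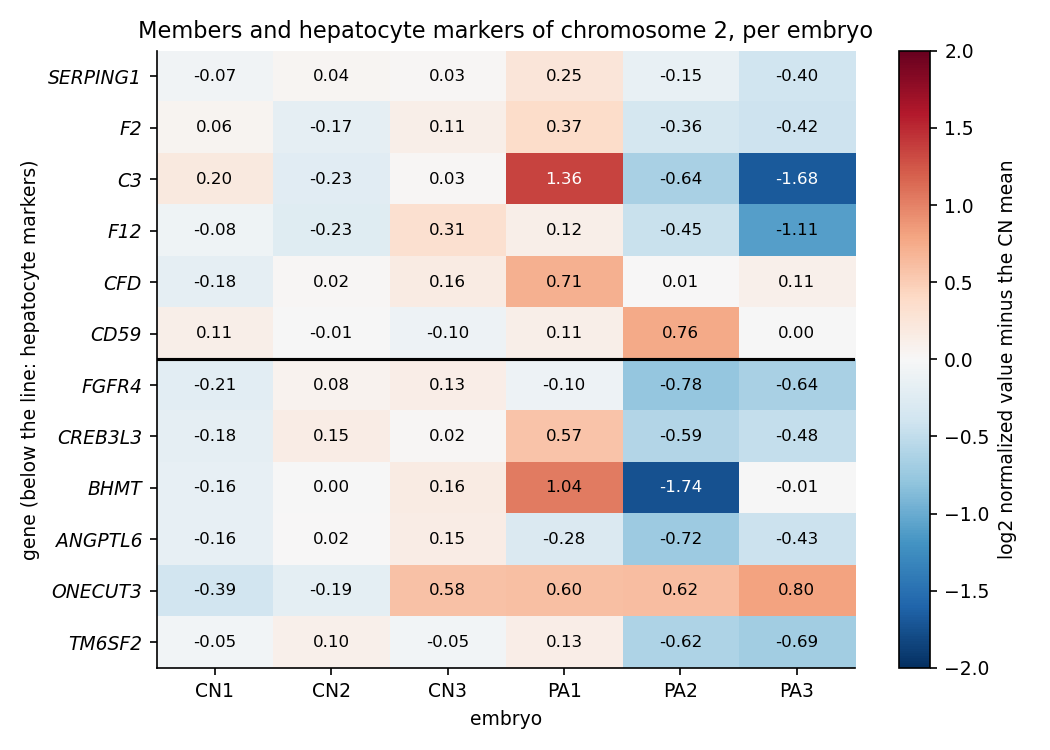
Log2 normalized value minus the CN mean for the 6 members (above the black line) and the 6 hepatocyte markers of chromosome 2 (below it), 1 column per embryo, red for higher and blue for lower. C3 runs from 1.36 in PA1 to -1.68 in PA3, and most hepatocyte markers are blue in PA2 and PA3, with ONECUT3 as an exception.

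Other cell types in the embryos were read from the markers of chromosome 2 as well. The summed level of 6 macrophage markers, a cell type that also makes C3, was 327 to 503 TPM in CN and 417, 358 and 322 TPM in PA1, PA2 and PA3. That of 5 erythroid markers was 7756 to 9229 and 7239 to 7591 TPM, of which PRDX2 alone held at least 6854 TPM in each embryo, and 0 of the 5 were called, with DNASE2 higher and KLF1 lower in every PA embryo than in CN. That of 4 endothelial markers was 185 to 247 and 168 to 204 TPM. Of these 4 endothelial markers 0 were called. The normalized values of all 4 did not overlap between the groups, beside 28.1% of all tested genes. LYL1, KANK3 and F2RL3 were lower and ICAM1 was higher in PA. The sum over 4 mural cell markers was 1202 to 1729 and 1249 to 1652 TPM, and over 5 mesenchymal markers 14503 to 15604 and 14103 to 16772 TPM. Most of the mesenchymal sum was MDK, at no less than 11419 TPM in each embryo. Of these 5, WT1 was called lower in PA (log2 fold change -0.47, edgeR adjusted p = 0.0205), while the other 4 had positive log2 fold changes and were not called. TGFBI (0.27) was higher in every PA embryo than in CN on the normalized scale. The summed kidney tubule markers were at 452 to 717 TPM in CN and 57.7 to 158 TPM in PA. Of these, 3 of 4 tested markers were called lower (SLC22A8, SLC22A12 and SLC34A1), beside 4.42% of all tested genes, whereas SLC22A6 had a log2 fold change of 0.12. For visceral endoderm and yolk sac 0 of 9 markers lie on chromosome 2. The macrophage markers CD68, CD163, AIF1 and C1QA and the endothelial markers CDH5, KDR, PECAM1, TIE1, ESAM and ROBO4 lie elsewhere and were at 0. The part of these cell types in the members' levels was not tested.

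The other complement and coagulation genes of chromosome 2 gave 1 call. Of a list of 106 such genes 11 lie on chromosome 2, all 11 were tested, and 1 was lower and 0 were higher in PA, 9.09% against the 6.42% of all tested genes. The median log2 fold change of the 11 genes was -0.08, and that of the 5 genes that are not members was -0.29, beside 0.01 over all tested genes. A further 91 genes of the list were found outside chromosome 2, where none had more than 5 counts in an embryo, so that partners such as factor B, C5, the fibrinogen chains or antithrombin could not be read.

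The called gene was F2RL1, which encodes PAR2, a receptor activated by trypsin-like proteases and by tissue factor complexes. Its level was 27.4, 42.4 and 38.4 TPM in CN and 14.0, 19.6 and 24.3 TPM in PA, without overlap. The log2 fold change was -0.85 (SE 0.20, edgeR adjusted p = 0.0411). The call was lost without any 1 of CN2, CN3, PA1, PA2 and PA3, where the adjusted p-value ranged from 0.0539 to 0.152, with the log2 fold change between -0.98 and -0.69.

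The 3 other protease-activated receptors were not called. F2R, which encodes the main thrombin receptor PAR1, was at 329, 360 and 336 TPM in CN and 283, 306 and 354 TPM in PA, with a log2 fold change of -0.07 (SE 0.08, edgeR adjusted p = 0.670). F2RL2, which encodes PAR3, was at 15.4, 26.1 and 15.3 TPM in CN and 23.0, 25.6 and 33.2 TPM in PA. Its normalized values did not overlap, and its log2 fold change was 0.59 (SE 0.22, edgeR adjusted p = 0.157).

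F2RL3, which encodes the thrombin receptor PAR4, was at 14.2, 19.2 and 17.1 TPM in CN and at 6.95, 10.4 and 12.8 TPM in PA, lower in every PA embryo than in CN. The log2 fold change of F2RL3 was -0.69 (SE 0.21, edgeR adjusted p = 0.0968). It is also one of the endothelial markers, of which LYL1 (-0.47) and KANK3 (-0.46) were lower in every PA embryo too on the normalized scale and ICAM1 (0.42) was higher, and the part of endothelial cells in its level was not tested. CALR, which encodes calreticulin, a chaperone that also binds the first complement component, was the most abundant gene of the list at 8924, 8397 and 8411 TPM in CN and 7220, 6060 and 6912 TPM in PA. Its log2 fold change was -0.29 (SE 0.13, edgeR adjusted p = 0.244). Of the genes encoding prothrombin and the receptors PAR1, PAR3 and PAR4, F2 and F2R had log2 fold changes within 0.10 of 0. F2RL2 (0.59) and F2RL3 (-0.69) lay further from 0 in opposite directions, and none of these genes was called.

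**Figure D3:**
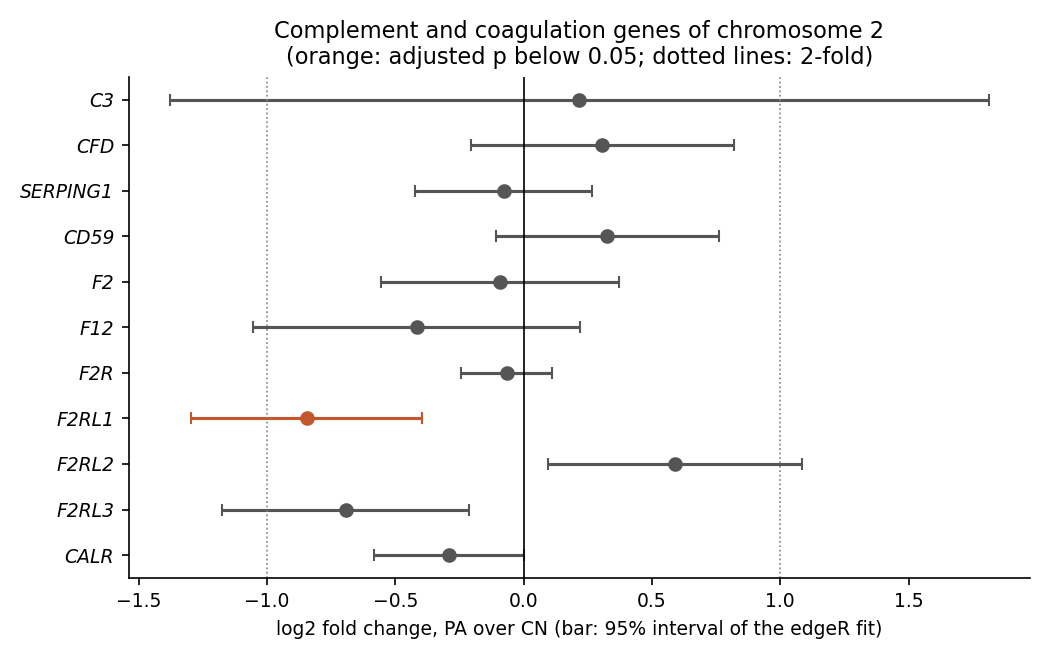
Log2 fold change, PA over CN (horizontal axis), of the 6 members and of the 5 other complement and coagulation genes of chromosome 2, with 95% intervals of the edgeR fit; dotted lines mark 2-fold. Only F2RL1 (orange, -0.85) was called, and the interval of C3, from -1.38 to 1.81, is the widest.

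Among 43 genes of a wider liver list, 24 lie on chromosome 2, 23 were tested, and 3 were lower and 0 higher in PA, a share of 13% beside 6.42% of all tested genes. BHMT2, a methyltransferase that makes methionine, was at 432, 471 and 422 TPM in CN and 49.7, 19.9 and 6.18 TPM in PA (log2 fold change -4.01, SE 0.55, edgeR adjusted p = 0.00394). DMGDH, the mitochondrial enzyme that oxidises dimethylglycine, fell from 51.2, 75.9 and 66.6 TPM to 12.3, 8.04 and 4.54 TPM (log2 fold change -2.85, SE 0.34, edgeR adjusted p = 0.00193). CPT1A, which admits fatty acids to mitochondria, had a log2 fold change of -0.62 (SE 0.13, edgeR adjusted p = 0.0300). The call of CPT1A was lost without CN2, CN3, PA1 or PA2 and with the replicate number as a block (edgeR adjusted p from 0.0585 to 0.122), and that of BHMT2 was lost without PA2 (edgeR adjusted p = 0.0540) and without the filter (edgeR adjusted p = 0.118), while DMGDH was called under all 13 alternatives. The median log2 fold change of the liver list was -0.10. The kidney tubule markers SLC22A12, SLC22A8 and SLC34A1 fell in the same embryos, with log2 fold changes of -4.33, -2.83 and -2.52, while SLC22A6 had one of 0.12, and their part in the lower liver genes was not tested. In PA1 the values of BHMT2 and DMGDH were below every CN embryo, whereas those of C3 and F2 were above.

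The neighbours of the members were examined because adjacent genes can be counted in each other's place or change as a block. Of the 24 nearest annotated genes, 2 on each side of each member, those of C3, F2 and SERPING1 that could be tested had log2 fold changes between -0.11 and 0.25, and none was called. CFD lies beside the neutrophil protease genes ELANE (1780 bases away; log2 fold change -1.65, SE 0.37, edgeR adjusted p = 0.0382) and PRTN3 (-1.06, SE 0.33, edgeR adjusted p = 0.0995), which share with it the serine protease fold. F12 lies 659 bases from PFN3 (log2 fold change -2.66, edgeR adjusted p = 0.0158) and 3372 bases from SLC34A1 (-2.52, edgeR adjusted p = 0.00308), the latter a phosphate transporter of the kidney tubule. The members next to these genes, CFD at 0.31 and F12 at -0.42, were not called.

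The noncoding gene LOC106509385 overlaps CD59 on the opposite strand. It had 29, 35 and 39 counts in CN and 1, 7 and 11 counts in PA, with a log2 fold change of -2.48 (SE 0.50, edgeR adjusted p = 0.0226), while CD59 in the same embryos was not called. The exons of CD59 and LOC106509385 share 0 bases, as do those of CFD and the overlapping gene MED16. The library kit does not mark strand, but without shared exonic bases the mature transcripts of these pairs are distinct.

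**Figure D4:**
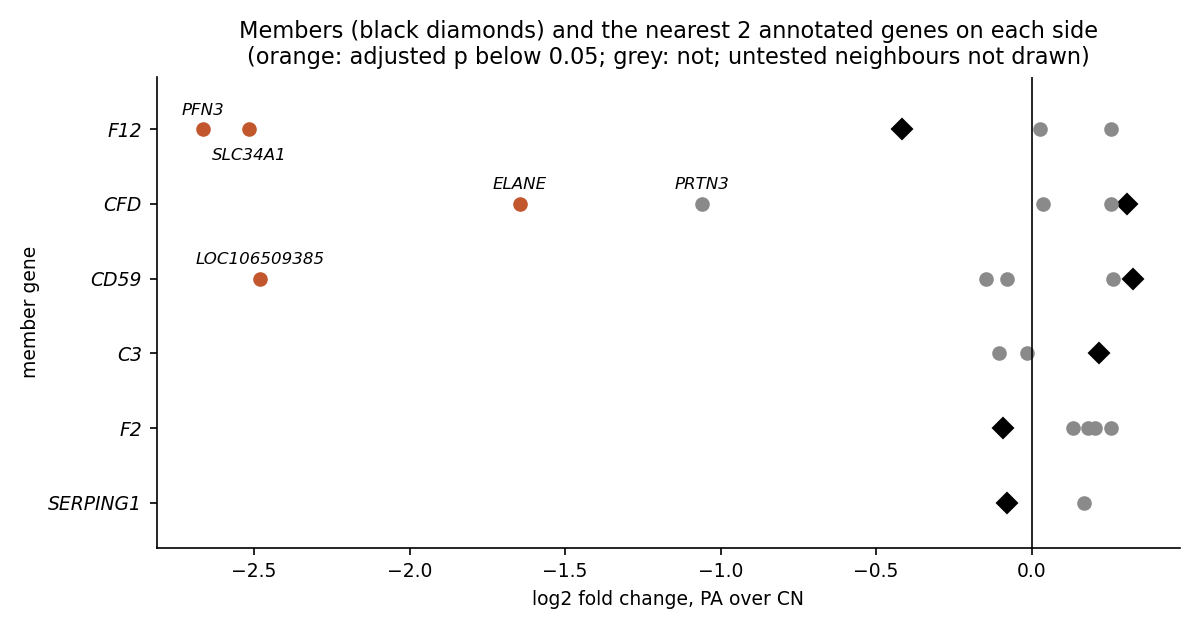
Log2 fold change, PA over CN (horizontal axis), of each member (black diamond) and of its nearest annotated genes that could be tested (circles; orange where the adjusted p-value was below 0.05). PFN3, SLC34A1, ELANE and LOC106509385 lie between -1.65 and -2.66, apart from the members beside them, which lie between -0.42 and 0.33.

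The share of each gene held by its most abundant transcript was compared in the 5 members with more than 1 annotated transcript. The groups did not overlap in 3 of these 5, beside 11% of the 846 tested chromosome 2 genes with several transcripts. The segments that set the coding transcripts of C3, F2 and F12 apart are shown, since they define what these shares count; the pairs were chosen after the values were seen. They are read 5′ to 3′ on the strand of the gene from Sscrofa11.1, and capitals mark a GT at the first or an AG at the last bases, the letters at which introns begin and end.
C3, chr2:72465783-72465905, plus strand: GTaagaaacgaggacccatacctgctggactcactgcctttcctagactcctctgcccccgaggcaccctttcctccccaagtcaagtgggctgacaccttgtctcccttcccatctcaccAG
F2, chr2:15811259-15811375, minus strand: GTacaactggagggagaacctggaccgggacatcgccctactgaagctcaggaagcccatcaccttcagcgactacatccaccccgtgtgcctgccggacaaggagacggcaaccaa
F12, chr2:80544261-80544289, plus strand: gggcggaggaatattccagtttcctgcAG

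The C3 segment of 123 bases is coding in XM_021080819.1 and removed as an intron in NM_214009.1, and it keeps the reading frame (coding lengths 5109 and 4986 bases). The spliced form NM_214009.1 held 99.4%, 98.5% and 98.5% of the C3 TPM in CN1, CN2 and CN3 and 96.3%, 98.1% and 97.7% in PA1, PA2 and PA3. The PA shares were below all CN shares, with means of 97.4% ± 0.96 and 98.8% ± 0.54 (SD, n = 3; two-sided exact permutation p = 0.1, the smallest possible). The transcript with the segment had 20 to 48 counts in CN, and 301, 39 and 24 counts in PA1, PA2 and PA3.

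In F12 a later acceptor site leaves out 29 bases that are coding in NM_214242.1. The transcript NM_214242.1 held 89.7%, 89.5% and 89.2% of the F12 TPM in CN and 86.6%, 85.0% and 83.0% in PA, without overlap (means 89.5% ± 0.28 and 84.9% ± 1.84, SD, n = 3; exact permutation p = 0.1). The 3 transcripts that lack the 29 bases, grouped after their values were seen, held 10.3%, 10.5% and 10.8% in CN and 13.4%, 10.9% and 17.0% in PA, from 109 to 194 counts per embryo. Part of the lower share of NM_214242.1 in PA2 was XM_021081368.1, which had 41 counts there and 0 in the other 5 embryos.

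CD59 has a short transcript, NM_214170.1, and a long one, XM_005661031.3, of the same coding length of 372 bases. The short transcript held 55.1%, 55.5% and 51.8% of the CD59 TPM in CN and 62.3%, 60.1% and 59.6% in PA. All 3 PA shares were above all CN shares, with means of 60.6% ± 1.44 and 54.1% ± 2.01 (SD, n = 3; exact permutation p = 0.1), and the direction was the same by counts, at 33.8% and 28.1%.

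The shares of F2 and SERPING1 overlapped between the groups. The F2 segment of 117 bases is coding in NM_001122985.1, begins with the GT that serves as a donor site in XM_021076838.1, and encodes part of the trypsin-like protease domain of prothrombin. NM_001122985.1 held 94.4% ± 0.98 of the F2 TPM in CN and 93.9% ± 0.60 in PA (SD, n = 3; exact permutation p = 0.4). NM_001123194.1 held 60.2% ± 3.27 of the SERPING1 TPM in CN and 57.9% ± 0.65 in PA (SD, n = 3; exact permutation p = 0.4). With 3 embryos a group none of these 5 comparisons could reach a p-value below 0.05, and the error of Salmon in dividing reads among transcripts that share exons was not measured here.

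**Figure D5:**
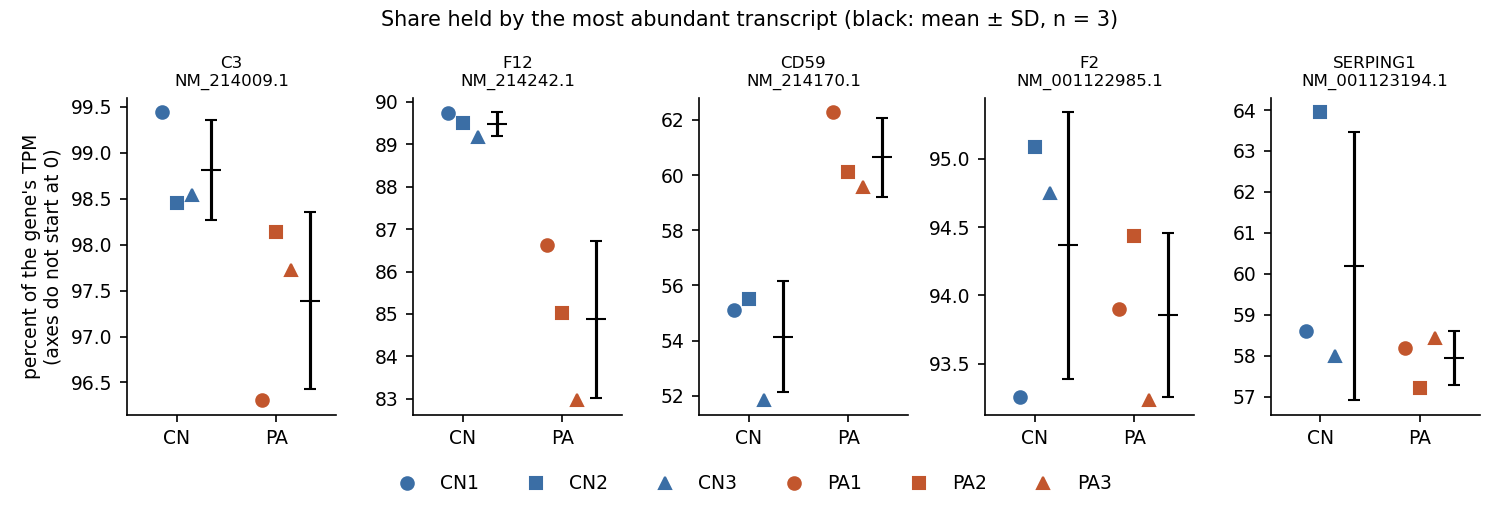
Percent of each gene's TPM held by its most abundant transcript (vertical axes, which do not start at 0), 1 point per embryo, with the mean ± SD in black. The groups do not overlap for C3, F12 and CD59, where PA was lower, lower and higher, and they overlap for F2 and SERPING1.

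The chromosome 2 genes most like each member over the 6 embryos were named by Pearson correlation of log2 normalized values among 1339 genes with a mean count of at least 50. With that many genes and 6 embryos the values are a description only, and none of those named was called between PA and CN. For C3 they were SNX15 (0.972), CCS (0.967) and LTC4S (0.965), and for F2 they were LTC4S (0.990), TALDO1 (0.990) and DDX49 (0.985). LTC4S, the enzyme that makes leukotriene C4, was at 410, 427 and 494 TPM in CN and 563, 307 and 292 TPM in PA, the same order of PA embryos as C3.

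SERPING1 was most like SNX15 (0.989), ZNF414 (0.980) and VWCE (0.974), so that SNX15 was named for both SERPING1 and C3. F12 was most like ISYNA1 (0.984), TCIRG1 (0.972) and KXD1 (0.956), and CFD was most like PIDD1 (0.967), PCYOX1L (0.956) and C2H11orf24 (0.941). The genes most like CD59 were ADM (0.981), FSTL3 (0.962) and LEAP2 (0.962). ADM, which encodes the vascular peptide adrenomedullin, was at 163 TPM in PA2 and 54.5 to 61.6 TPM in the other 5 embryos, and LEAP2, which encodes a liver peptide, was at 1014 TPM in PA2 and 127 to 199 TPM elsewhere. CD59, ADM and LEAP2 were thus all highest in PA2.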

How the data were processed

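RNA-seq of 3 PA and 3 CN whole embryos was analysed from the files of the authors, who quantified reads against the pig transcriptome with Salmon 1.3.0. The authors deposited, per transcript, estimated counts (not whole and not normalized), TPM values scaled within each embryo, and effective lengths. The submitters' processing notes also name STAR 2.7.5, Picard, SAMtools and Sscrofa11.1. The library kit was not strand-selective. Members and lists were chosen with earlier results of these data known.

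Of 81496 transcripts, 80952 were joined to genes by NCBI Annotation Release 106 of Sscrofa11.1 and 544 were not, and counts and TPM were summed per gene. Counts were rounded and tested two-sided with edgeR 4.0.16 in R 4.3.3, using TMM, an average transcript length offset, filterByExpr (minimum count 10, minimum total 15), robust quasi-likelihood and Benjamini-Hochberg adjustment over 1652 genes, 1539 of them on chromosome 2. A gene was called at an adjusted p-value below 0.05. Each standard error was taken as the size of the log2 fold change over the root of its F statistic. Levels, as log2(TPM + 0.1), and transcript shares were compared by exact permutation. Tables were made in Python 3.11.15 with pandas 2.3.3. The code was tested on simulated data. With these depths 3 counts are 0.840 to 0.968 CPM, counting error only. No pair of embryos within a group was 1 library (chi-square per degree of freedom 5.78 to 96.5).

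Named genes were the members, the other complement and coagulation genes of chromosome 2, called liver genes, the 2 nearest genes on each side and the 3 most correlated genes. Alternatives were DESeq2 1.42.0 (the test of the study), no TMM, no length offset, no filter, at least 10 counts in every embryo, chromosome 2 genes alone, a replicate block, each embryo left out, and for TPM a pseudocount of 1 and a rescaling over chromosome 2 without the most abundant transcript, and for transcript shares those of counts. Single cell type markers named, the shares of genes without overlap in transcript shares or below CN in PA2 and PA3, motifs, windows, correlations among members, spread ranks and transcript segments were added after values were seen.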

Additional observations from a re-analysis of the deposited data

How the results depend on the processing

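Of 356 values recomputed for 32 results, 317 were classed as the same, 20 counts moved, 12 calls of single genes were lost and 7 values changed sign. Among those classed as the same, differences kept their direction and, where tested, their side of the threshold. Counts in that class could still differ from the main fit, as with 91 to 142 genes called beside 106. Under all 13 alternatives 0 members were called. Directions of members with small differences changed: C3 was -0.31 with the replicate block and -1.07 without PA1, F2 was 0.034 without PA2 and 0.051 without PA3, and SERPING1 was 0.063 without PA3. The mean difference in log2 TPM was 0.24 without PA3 for C3 and -0.0081 without PA2 for CD59; the cause was not tested. Leaving out 1 embryo at a time moved C3 from -1.07 to 0.67, F2 from -0.37 to 0.051 and SERPING1 from -0.25 to 0.063, and the difference in log2 TPM from -1.16 to 0.24 for C3 and from -0.0081 to 0.38 for CD59. The replicate numbers did not pair the embryos (correlations of same-numbered deviations 0.253, 0.122 and 0.042), and the block changed no other direction of a member, while the call of CPT1A was lost. The number of genes at an adjusted p-value below 0.05 was 173 with DESeq2, 196 without the filter, which tests more genes, and 44 to 142 without 1 embryo. With the 2-fold criterion it was 77 without the filter and 32 to 54 without 1 embryo. Complement and coagulation genes called lower were 0 to 1 without 1 embryo. Liver genes called lower were 1 to 5 without 1 embryo, and those called higher were 1 with DESeq2, without the length offset and without the filter, and 0 to 1 without 1 embryo. CFD had the fewest counts of the members, and the 95% interval of C3 spanned 0.385-fold to 3.51-fold.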
